A study of Mus musculus with 4 samples.

Results

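This report describes 10 genes known from other work to respond to glucocorticoids, Zbtb16, Bcl6, Dusp1, Fkbp5, Tsc22d3, Sgk1, Cdkn1a, Errfi1, Mt1 and Mt2, in the acid-secreting gastric corpus of mice given metformin or vehicle. They were found by symbol among the probe sets that the platform annotation pairs with exactly 1 gene, and all 10 of the 22180 genes so measured were present, each with 1 probe set. All 10 also passed the expression filter, for which a gene's mean over the 4 arrays had to reach 5.03 (log2), the middle value among genes; 11090 genes did. The group was selected on results of these same arrays, with the log2 differences of its members between groups known, so the values below describe the genes and test nothing.

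Total RNA from the corpus of adult mice 8 to 10 weeks old was hybridised to 4 arrays, 1 for each combination of 2 genotypes and 2 treatments. The AMPK knockout mice (KO: Atp4b-cre; Prkaa1fl/fl; Prkaa2fl/fl) lack the 2 alpha subunit genes of AMPK, the energy-sensing kinase, wherever the Atp4b promoter, that of the parietal cell proton pump, drives Cre. They received either metformin, 300 mg/kg daily by intraperitoneal injection for 14 days, or saline vehicle on the same schedule. The wild-type mice (WT, C57BL/6) received the same 2 treatments. KO mice were of mixed B6 and FVB background, so genotype and strain background cannot be told apart. Other corpus cells keep AMPK, and per the submitters the KO corpus holds a reduced number of parietal cells whose maturation is impaired. The sources used here give neither the number of animals behind an array nor the hour of sampling. With 1 array a group, no difference has a replicate check and none was tested. Differences are of log2 values, and a gene past 2-fold has one of at least 1 in size.

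Glucocorticoids are adrenal steroids released with the daily rhythm and under stress. They bind the receptor encoded by Nr3c1, which is held by chaperones in the cytoplasm, moves to the nucleus and there binds palindromic DNA elements and other transcription factors. The 10 genes fall by role into transcriptional repressors (Zbtb16 and Bcl6, zinc finger proteins with a BTB domain that recruits co-repressors), inhibitors of signalling (Dusp1, which dephosphorylates MAP kinases; Errfi1, which blocks the EGF receptor; Tsc22d3, known as GILZ, which restrains NF-kappaB and AP-1), the receptor's own co-chaperone Fkbp5, the kinase Sgk1, the cyclin-dependent kinase inhibitor Cdkn1a (p21), and the zinc-binding metallothioneins Mt1 and Mt2. None of them responds to glucocorticoids alone: p53 raises Cdkn1a, metals raise the metallothioneins through the factor Mtf1, and growth factors and stress raise Dusp1.

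RefSeq promoter windows of assembly GRCm38.p6 (250 bases before to 50 after an annotated start) were found for 9 of the 10 genes, 19 windows in all. Zbtb16 had no window, so its promoter was not searched. Windows that hold chosen elements are printed 5′ to 3′, with only the letters named beside each window in capitals. The first pair belongs to Bcl6 and Dusp1, which shared a profile over the arrays. For Bcl6 it is 1 of 2 windows (chr16:23988803-23989102, minus strand), with the E-box CACGTG. The other Bcl6 window, not printed, has no E-box and holds matches of the motifs AGAACA (1) and TTCNNNGAA (3). For Dusp1 it is the only window (chr17:26508423-26508722, minus strand), with the cyclic AMP response element TGACGTCA followed by an E-box. Fkbp5 and Sgk1, whose profiles differed from these, also have an E-box.
Bcl6: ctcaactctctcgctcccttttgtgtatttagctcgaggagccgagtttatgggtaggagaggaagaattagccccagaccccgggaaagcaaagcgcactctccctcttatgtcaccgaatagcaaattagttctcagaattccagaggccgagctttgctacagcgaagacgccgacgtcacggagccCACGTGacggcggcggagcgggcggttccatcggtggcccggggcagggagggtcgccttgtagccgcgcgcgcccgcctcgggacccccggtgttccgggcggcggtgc
Dusp1: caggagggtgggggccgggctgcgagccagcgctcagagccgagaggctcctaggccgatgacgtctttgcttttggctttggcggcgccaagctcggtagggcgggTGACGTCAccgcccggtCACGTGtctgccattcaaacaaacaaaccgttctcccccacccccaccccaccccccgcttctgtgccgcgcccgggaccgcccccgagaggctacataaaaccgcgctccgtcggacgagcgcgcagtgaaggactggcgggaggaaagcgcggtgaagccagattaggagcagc
The third is 1 of 6 windows of Sgk1 (chr10:21993640-21993939, plus strand). It is shown because it holds the full receptor palindrome (AGAACA, any 3 bases, then TGTTCT), a search added after the other results had been seen.
Sgk1: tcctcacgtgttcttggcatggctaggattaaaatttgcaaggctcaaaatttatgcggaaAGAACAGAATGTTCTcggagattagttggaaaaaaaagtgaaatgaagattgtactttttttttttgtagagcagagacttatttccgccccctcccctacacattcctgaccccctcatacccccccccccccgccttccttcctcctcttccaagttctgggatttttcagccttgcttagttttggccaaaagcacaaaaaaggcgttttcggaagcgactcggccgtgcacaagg
The last pair belongs to the neighbouring genes Mt1 (chr8:94178839-94179138, plus strand) and Mt2 (chr8:94172368-94172667, plus strand), with the metal response element cores TGCACNC and TGCGCNC on either strand in capitals.
Mt1: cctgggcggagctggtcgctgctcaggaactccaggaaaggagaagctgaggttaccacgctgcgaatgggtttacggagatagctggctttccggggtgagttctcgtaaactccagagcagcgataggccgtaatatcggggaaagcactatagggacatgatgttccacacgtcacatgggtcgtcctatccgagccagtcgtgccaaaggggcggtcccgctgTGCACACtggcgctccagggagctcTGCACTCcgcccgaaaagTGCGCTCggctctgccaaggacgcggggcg
Mt2: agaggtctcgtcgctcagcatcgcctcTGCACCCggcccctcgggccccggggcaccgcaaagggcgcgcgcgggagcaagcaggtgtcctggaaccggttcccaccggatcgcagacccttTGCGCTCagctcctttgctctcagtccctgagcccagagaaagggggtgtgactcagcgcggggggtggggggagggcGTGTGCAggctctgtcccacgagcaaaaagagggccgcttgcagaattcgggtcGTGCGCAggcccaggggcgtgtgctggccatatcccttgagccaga

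Motifs were searched on both strands, and a match says only that the letters are there. The palindrome was in 3 of 32851 windows of all genes (0.00913%), of which the Sgk1 window is 1. Its single arm AGAACA was in 5 of the 19 windows of the 9 genes (those of Bcl6, Sgk1 and Tsc22d3) and in 19.0% of all windows. The E-box, which clock factors also bind, was in 4 of the 19 windows (of Bcl6, Dusp1, Fkbp5 and Sgk1) and in 7.15% of all windows. The cyclic AMP response element was in 2 of the 19 windows (of Dusp1 and Errfi1) and in 1.79% of all. Mt1 had 3 metal response cores and Mt2 had 4, and 1.97% of all windows had at least 3. The letters TTCNNNGAA, of the STAT and Bcl6 type, were in 4 of the 19 windows (of Bcl6, Sgk1 and Tsc22d3) and in 8.3% of all. TATAAA was in 3 of the 19 (of Errfi1 and Sgk1) and in 13.6% of all. The Sgk1 palindrome overlaps matches of AGAACA by construction. Some matches in the printed windows stay in lower case: an E-box and a further AGAACA in Sgk1, TTCNNNGAA in Bcl6 and TGCGCNC in Dusp1.

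The repressors Zbtb16 and Bcl6 and the phosphatase Dusp1 were high on the WT vehicle array and close together on the other 3. Zbtb16 had log2 values of 6.17 on the KO metformin array, 6.39 on the KO vehicle array, 6.26 on the WT metformin array and 8.05 on the WT vehicle array. Bcl6 had 5.40 (KO metformin), 4.84 (KO vehicle), 5.32 (WT metformin) and 7.17 (WT vehicle). Dusp1 had 7.21 (KO metformin), 6.63 (KO vehicle), 7.10 (WT metformin) and 8.52 (WT vehicle). On the 3 arrays other than WT vehicle these values spanned 0.22 for Zbtb16, 0.56 for Bcl6 and 0.58 for Dusp1, and the WT vehicle value lay above their mean by 1.78, 1.98 and 1.54. The Bcl6 value on the KO vehicle array lies under the filter value, so that difference is not read as a fold. Its mean without the WT vehicle array (5.18) would still have passed the filter.

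**Figure D1:**
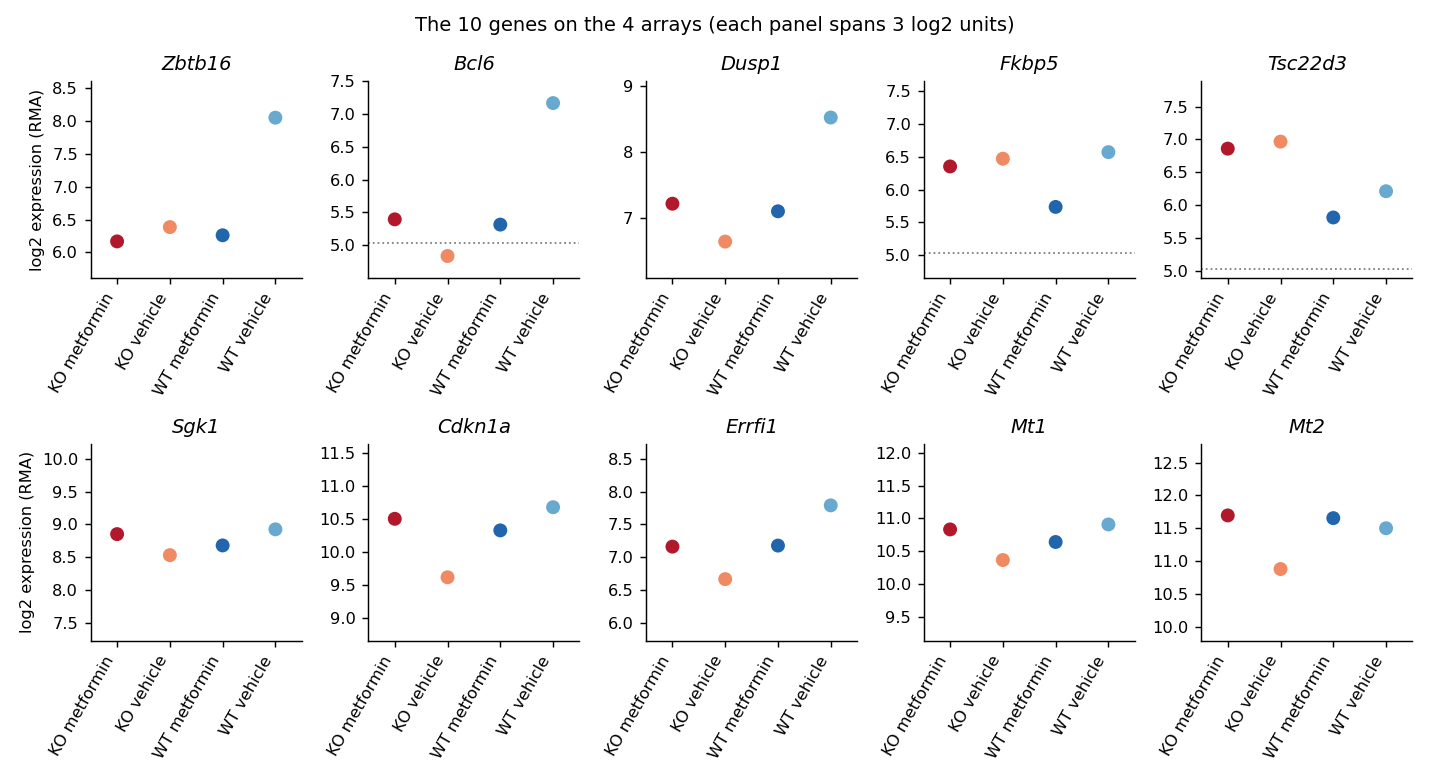
Log2 expression of each of the 10 genes on the 4 arrays, 1 point an array, in panels that each span 3 log2 units; the dotted line is the filter value of 5.03 where it falls in a panel. Zbtb16, Bcl6 and Dusp1 stand high on the WT vehicle array only, Tsc22d3 is higher on both KO arrays, and Cdkn1a, Errfi1, Mt1 and Mt2 are lowest on the KO vehicle array.

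The remaining 7 genes followed other profiles. Fkbp5 had 6.35 (KO metformin), 6.47 (KO vehicle), 5.74 (WT metformin) and 6.57 (WT vehicle), so that the WT metformin array stood below 3 arrays of similar value. Tsc22d3 had 6.86 (KO metformin), 6.97 (KO vehicle), 5.81 (WT metformin) and 6.21 (WT vehicle), the only one of the 10 with both KO arrays above both WT arrays. Sgk1 spanned the least, with 8.85 (KO metformin), 8.53 (KO vehicle), 8.68 (WT metformin) and 8.93 (WT vehicle). Its 4 arrays lay within 0.39 of each other.

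Cdkn1a and Errfi1 were lowest on the KO vehicle array. Cdkn1a had 10.5 (KO metformin), 9.61 (KO vehicle), 10.3 (WT metformin) and 10.7 (WT vehicle). Errfi1 had 7.16 (KO metformin), 6.67 (KO vehicle), 7.18 (WT metformin) and 7.79 (WT vehicle), a smaller version of the Dusp1 profile. The metallothioneins were also lowest there. Mt1 had 10.8 (KO metformin), 10.4 (KO vehicle), 10.6 (WT metformin) and 10.9 (WT vehicle), and Mt2 had 11.7 (KO metformin), 10.9 (KO vehicle), 11.7 (WT metformin) and 11.5 (WT vehicle).

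Distances between profiles, each centred on its own mean over the 4 arrays, put numbers on these groups (log2 units; 0 means the same shape). The closest pairs were Sgk1 with Mt1 (0.12), Cdkn1a with Errfi1 (0.36) and Bcl6 with Dusp1 (0.38). Mt1 and Mt2 lay 0.40 apart and Zbtb16 and Bcl6 0.60 apart. The farthest was Bcl6 from Tsc22d3 (2.32), followed by Zbtb16 from Tsc22d3 (2.04). Zbtb16 and Dusp1 lay 0.62 apart. Among Fkbp5, Tsc22d3 and Sgk1, common readouts of the receptor, the distances were 0.64 (Fkbp5 and Sgk1), 0.71 (Fkbp5 and Tsc22d3) and 1.06 (Tsc22d3 and Sgk1).

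Read against all genes, part of this ordering is common. The WT vehicle array was the highest for 8 of the 10 genes, and for 46.2% of the 11090 genes kept. The KO vehicle array was the lowest for 7 of the 10, against 44.3% of all. Both at once held for Bcl6, Dusp1, Sgk1, Cdkn1a, Errfi1 and Mt1, 6 of 10, against 28.8% of all. The profile of Zbtb16, Bcl6 and Dusp1 was rarer. Only 31 genes (0.28% of those kept) were at least 2-fold higher on the WT vehicle array than on every other array while the other 3 stayed within 2-fold of each other, and these 3 were among them. That rule was written after the values had been seen. Of the 31, Alg6, Card6 and Upk1b passed the expression filter only through the WT vehicle array.

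**Figure D2:**
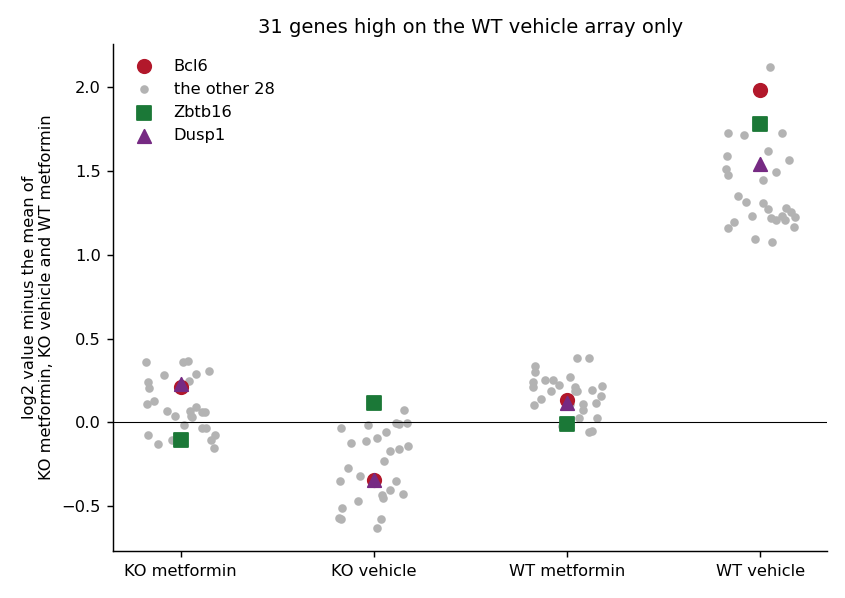
The 31 genes at least 2-fold higher on the WT vehicle array than on each other array, with the other 3 arrays within 2-fold of each other. The y axis is the log2 value minus the gene's mean on the KO metformin, KO vehicle and WT metformin arrays, with Bcl6, Zbtb16 and Dusp1 in colour and the rest in grey; Bcl6 (1.98), Zbtb16 (1.78) and Dusp1 (1.54) lie in the upper part of the WT vehicle column.

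The genes nearest to Zbtb16 and Bcl6 in profile came from the same 31. The 5 nearest to Zbtb16 were the chemerin-binding receptor Ccrl2 (distance 0.46), the exoribonuclease Eri1 (0.48), the T cell coreceptor Cd4 (0.51), Tmem50b (0.52) and Mblac2 (0.54), against a median distance of 1.47 over all genes. The 5 nearest to Bcl6 were Lrrc31 (0.28), the zinc finger gene Zscan26 (0.32), the VIP receptor Vipr2 (0.33), the glycosylation enzyme Alg6 (0.37) and the kinase Stk32b (0.38), against a median of 1.65. Alg6 had 4.95 (KO metformin), 4.49 (KO vehicle), 5.08 (WT metformin) and 6.43 (WT vehicle), so it passed the filter only through the WT vehicle array. Ranked by Pearson's r over the 4 arrays in place of distance, among the 1374 genes that spanned 2-fold or more, 1 of the 5 remained for Zbtb16 (Ccrl2) and 0 for Bcl6, so the names depend on the measure. Mt1 had a profile that many genes share: its 5 nearest (Agmo, Nat10, Exd2, Heatr5a and Slc25a28) lay within 0.03, the median distance was 0.46, and 6262 genes lay within 0.5 of it, against 2 for Zbtb16 and 9 for Bcl6. Distance depends on the size of a profile. By r, which does not, 280 of the 1374 genes had r over 0.95 with Mt1, 201 with Bcl6 and 36 with Zbtb16.

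Zbtb16 and Bcl6 are also genes of lymphocytes, and Cd4 is a T cell gene, so markers of those cells were set beside them. Cd3d, Cd3e, Cd3g and Cd8a had 3.77, 4.43, 3.44 and 3.45 on the WT vehicle array, under the filter value. Their means over the arrays lay under it too, so no order of the arrays is read from them. Of the T and NK list, 2 of 6 measured genes passed the filter, Cd4 (lower by 1.10 with metformin in WT) and Nkg7 (higher by 0.34). Of the macrophage and granulocyte list, 5 of 7 measured genes passed, with a median difference of 0.18 in the same comparison. Of the B and plasma cell list, 2 of 6 measured genes passed, the plasma cell genes Jchain and Derl3, and Cd79a, Cd79b and Ms4a1 lay under the filter value. Derl3 had -0.25 with metformin in WT, where 65.3% of all genes were below 0. Jchain had 3.19 (WT metformin) and 3.94 (WT vehicle), both under the filter value, so its difference (-0.75) is not read as a fold. It passed the filter through the KO arrays, with 6.08 (KO metformin) and 7.02 (KO vehicle). The part of lymphocytes in the Zbtb16 and Bcl6 differences was not tested.

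The metformin comparison in WT asks which genes respond in stomachs with mature parietal cells. Of the 10 genes, 3 were at least 2-fold lower with metformin and 0 higher, where 0.929% of all genes were lower and 0.775% higher. They were Bcl6 (3.61-fold, difference -1.85, the lowest of 11090 genes), Zbtb16 (3.46-fold, -1.79, the second lowest) and Dusp1 (2.69-fold, -1.43, the eighth lowest). These are values the choice of genes had in view. Fkbp5 (-0.83) ranked 251 from the lowest and Errfi1 (-0.61) 852. Tsc22d3 (-0.40), Cdkn1a (-0.35), Mt1 (-0.27) and Sgk1 (-0.25) lay nearer to the median of all genes (-0.14), and Mt2 had 0.15. The median of the 10 was -0.51, with 9 of 10 below 0 where 65.3% of all genes were.

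Per the submitters, the KO metformin comparison was made for targets in progenitors and cells other than parietal ones. The KO arrays still carried the proton pump gene Atp4a at 12.9 (KO metformin) and 12.8 (KO vehicle), against 13.0 (WT metformin) and 13.2 (WT vehicle). None of the 10 was past 2-fold, where 2.44% of all genes were higher and 0.613% lower. Cdkn1a had the highest difference (0.89, 1.85-fold), followed by Mt2 (0.82, 1.76-fold), Dusp1 (0.58), Bcl6 (0.56), Errfi1 (0.49), Mt1 (0.47) and Sgk1 (0.32). Zbtb16 (-0.22), Fkbp5 (-0.12) and Tsc22d3 (-0.11) lay just below 0. The median of the 10 was 0.48, against 0.11 over all genes. On the same pair of arrays squamous epithelium markers were higher in 6 of the 6 past the filter (median 2.40, Krt10 3.25). Krtdap, Krt13 and Sbsn of these passed only through the KO metformin array, so that count and median are partly set by the filter. Krtdap had 9.13 (KO metformin) and 4.43 (KO vehicle, under the filter value), so its difference is not read as a fold. Mucous neck cell markers were higher in 4 of 5 (median 0.96) and smooth muscle markers in 7 of 8 (median 0.53). Of all genes 61.7% were above 0 there. The part of these cells in the differences was not tested.

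**Figure D3:**
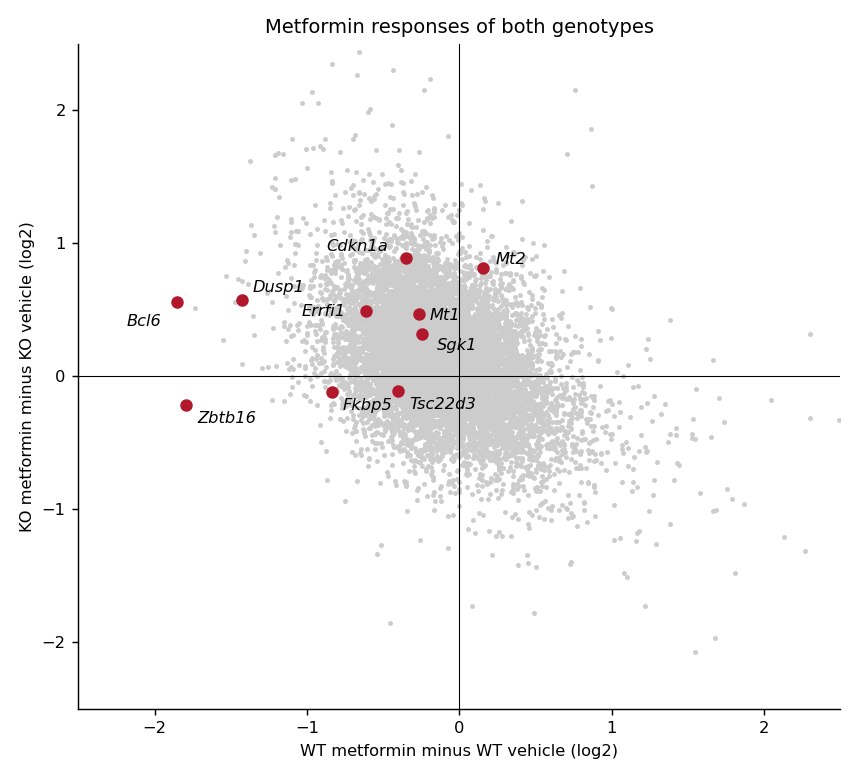
Metformin minus vehicle in KO (y axis) against metformin minus vehicle in WT (x axis), log2, for the 11090 genes kept (grey, 8 lie outside the axes) with the 10 genes in red; the axes share no array. Bcl6, Dusp1 and Zbtb16 lie at the far left, near the horizontal line.

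The difference of responses (KO response minus WT response) was at least 1 for 5 of the 10 genes, Bcl6 (2.41), Dusp1 (2.01), Zbtb16 (1.57), Cdkn1a (1.24) and Errfi1 (1.11), and for 11.2% of all genes; it was -1 or less for 0 of the 10 and for 3.61% of all. None of the 10 was below 0, where 33.0% of all genes were. It has no residual degrees of freedom and no test. The KO response was positive and the WT response negative for 6 of the 10, against 46.6% of all genes.

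The genotypes were compared within each treatment. Under vehicle 5 of the 10 were at least 2-fold lower in KO and 0 higher, where 8.12% of all genes were lower and 2.31% higher. Bcl6 (-2.33) ranked 34 from the lowest, Dusp1 (-1.89, 3.70-fold) 97 and Zbtb16 (-1.67, 3.17-fold) 152, followed by Errfi1 (-1.12, 2.18-fold) and Cdkn1a (-1.07, 2.09-fold). Mt2 (-0.62), Mt1 (-0.54), Sgk1 (-0.39) and Fkbp5 (-0.10) were within 2-fold, and Tsc22d3 was higher by 0.76. This comparison and the WT metformin comparison share the WT vehicle array, so the low values of Bcl6, Zbtb16 and Dusp1 in both are the same high value of that array. It likewise shares the KO vehicle array with the KO metformin comparison. With cyclic loess scaling, 3 of the 10 were past 2-fold, since Errfi1 (-0.89) and Cdkn1a (-0.86) were not, and Fkbp5 was at 0.04.

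Under metformin the genotypes differed little in most of these genes. Tsc22d3 was 2.07-fold higher in KO (1.05, rank 53 from the highest), 1 of 10 past 2-fold higher and 0 lower, where 0.532% of all genes were higher and 0.388% lower. Fkbp5 was higher by 0.62 (rank 284). The other 8 lay between -0.09 (Zbtb16) and 0.19 (Mt1). Zbtb16, Bcl6 (0.08) and Dusp1 (0.12) thus differed by at most 0.12 between genotypes on the arrays that leave out WT vehicle, and by at most 0.58 between treatments in KO. Tsc22d3 is the one gene of the 10 whose genotype difference had the same sign and a size over 0.7 under both treatments.

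**Figure D4:**
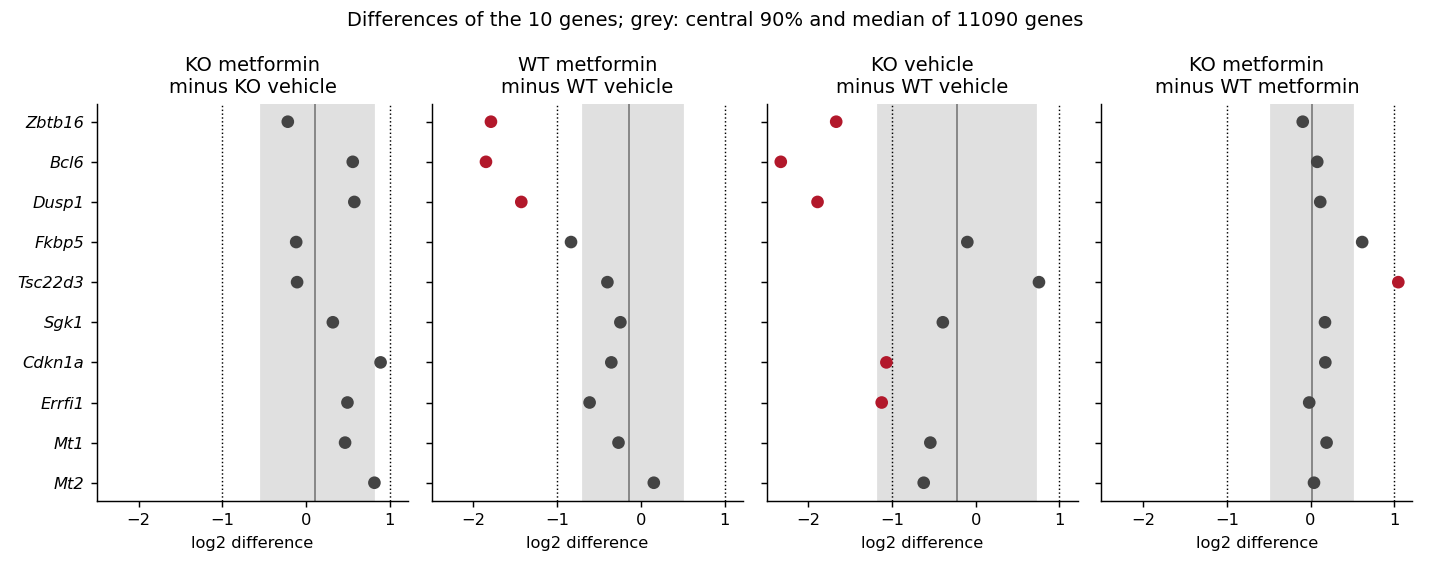
Log2 differences of the 10 genes in the 4 comparisons, 1 point a gene, red where past 2-fold (dotted lines); the grey band holds the central 90% of the 11090 genes and the grey line their median. Bcl6, Zbtb16 and Dusp1 lie outside the band in both comparisons that use the WT vehicle array and inside it in the other 2. Between genotypes under metformin, Fkbp5 (0.62) and Tsc22d3 (1.05) lie to the right of the band.

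The receptor's own transcript was nearly level over the arrays. Nr3c1, the glucocorticoid receptor, had 7.37 (KO metformin), 7.42 (KO vehicle), 7.42 (WT metformin) and 7.49 (WT vehicle). Nr3c2, the mineralocorticoid receptor, which also binds corticosterone, had 6.16, 6.03, 5.98 and 5.82 on the same arrays. Neither receptor transcript differed by more than 0.21 in any of the 4 comparisons. Hsd11b1, which regenerates active corticosterone, lay between 4.49 and 4.82 and Hsd11b2, which inactivates it, between 4.20 and 4.77, all under the filter value. Of 22 genes of receptors, steroid enzymes, chaperones and cofactors, 16 passed the filter and 0 were past 2-fold in any of the 4 comparisons. Of all genes 8.12% were past 2-fold lower in KO under vehicle and 2.44% higher with metformin in KO. The difference of responses was at least 1 for 5 of the 16 (Stip1, Ncoa2, Ncoa3, Crebbp and Ep300, 1.24 the highest) and for 11.2% of all genes. The median of the 16 was -0.52 in KO against WT under vehicle (all genes -0.22). The Hsp90 adaptor Stip1 (-0.92) and the coactivators Ep300 (-0.83) and Ncoa2 (-0.77) were lowest there and Nr3c2 (0.21) highest. With metformin in KO Ep300 had 0.98, above each of the 10 genes, and the median was 0.33 (all genes 0.11). Fkbp4, the co-chaperone that opposes Fkbp5 on the receptor, had differences from -0.12 to 0.05.

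Other genes known to be induced by glucocorticoids in 1 or more tissues gave a mixed picture. Of 40 listed, 30 passed the filter. With metformin in WT 2 of them were at least 2-fold lower and 0 higher, where 0.929% and 0.775% of all genes were. The 2 were the clock gene Per1 (-1.19) and the transcriptional cofactor Cited2 (-1.15). The phagocytic receptor Mertk (-0.73) came next, and Cebpb (0.24) and Hif3a (0.14) were highest. The list median was -0.30 (all genes -0.14). In KO with metformin 0 of 30 were past 2-fold and the median was 0.14 (all genes 0.11), from the sulfotransferase Sult1a1 (-0.59) to the insulin receptor substrate Irs2 (0.83) and Per1 (0.78).

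Between genotypes under vehicle 3 of the 30 were at least 2-fold lower in KO, where 8.12% of all genes were, a share near that of the list. They were Cited2 (-1.25), Irs2 (-1.20) and annexin A1 (Anxa1, -1.06), an anti-inflammatory phospholipid-binding protein. The list median was -0.40 (all genes -0.22), and Lcn2 (0.58), Klf15 (0.44) and Klf13 (0.35) were highest. Under metformin 1 of the 30, Per1 (1.23), was past 2-fold higher in KO and 0 lower, where 0.532% and 0.388% of all genes were. Zfp36 (0.71) and Snai2 (0.71) came next. Klf15, a metabolic factor that is a common glucocorticoid readout, had 7.07 (KO metformin), 7.23 (KO vehicle), 6.47 (WT metformin) and 6.79 (WT vehicle), with both KO arrays above both WT arrays as for Tsc22d3. Klf9, another common readout, had 8.53 (KO metformin), 8.14 (KO vehicle), 8.29 (WT metformin) and 8.74 (WT vehicle), with WT vehicle highest and KO vehicle lowest. Pdk4, the fasting-induced kinase of pyruvate dehydrogenase, was lower by 0.67 with metformin in WT and higher by 0.60 with metformin in KO.

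Inflammatory genes that glucocorticoids repress could hardly be read. Of 18 listed, 15 lay under the filter value, among them Il6, Tnf and Ccl2. Of the 3 that passed, the prostaglandin synthase Ptgs2 was lower in KO than in WT under vehicle by 1.51, and had 5.14 (KO metformin), 4.71 (KO vehicle), 5.52 (WT metformin) and 6.22 (WT vehicle). In that comparison Vcam1 had -0.42, and Ccl5 had 5.24 on both arrays. FOXO factors and genes raised by FOXO or fasting share 4 genes with the list of induced genes (Pdk4, Irs2, Klf15 and Cited2). Of 14 that passed the filter, 1 (Cited2) was past 2-fold lower with metformin in WT, where 0.929% of all genes were. In KO against WT under vehicle 2 (Cited2 and Irs2) were past 2-fold lower, where 8.12% of all genes were. Foxo1 (-0.40 and -0.42) and Foxo3 (-0.44 and -0.52) had smaller differences in these comparisons.

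**Figure D5:**
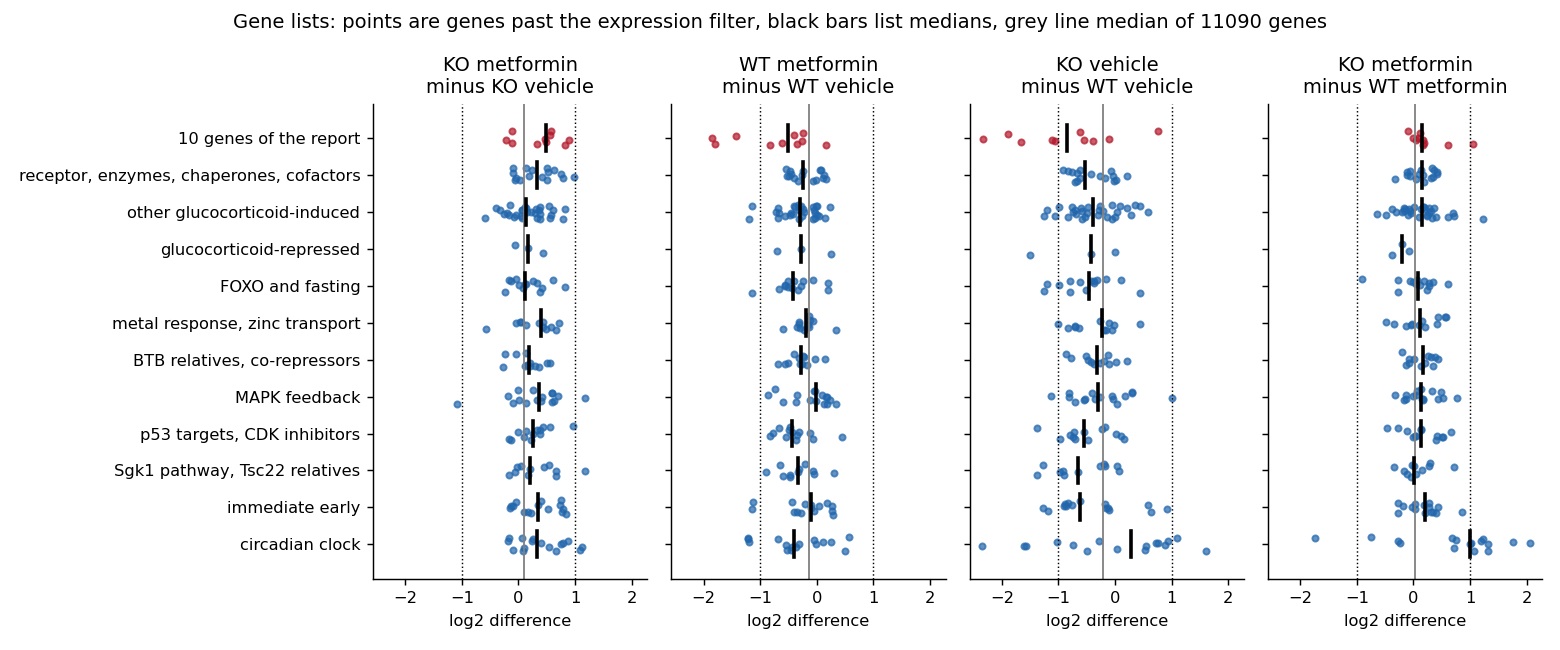
Log2 differences in the 4 comparisons for the 10 genes (red) and 11 further lists (blue), 1 point for each gene past the expression filter; black bars are list medians, the grey line the median of 11090 genes and dotted lines 2-fold. Most lists lie near the grey line, and the circadian clock list spreads widest in both genotype comparisons.

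Around the single genes, relatives were read in the same way. Of 12 BTB zinc finger relatives and co-repressors past the filter, 0 were past 2-fold in any of the 4 comparisons. Of all genes 8.12% were past 2-fold lower in KO under vehicle. The deacetylases Hdac1 (-0.87) and Hdac4 (-0.78) were lowest in KO under vehicle, and Zbtb20 and Zbtb7a had -0.47 and -0.51. Prdm1, which Bcl6 represses in B cells, had differences from -0.31 to -0.20 in the 4 comparisons. Of 16 feedback inhibitors of MAP kinase and receptor signalling, only Dusp6, a phosphatase for ERK, was past 2-fold lower in KO under vehicle (-1.13). Of all genes 8.12% were. Dusp6 was lower by 0.87 with metformin in WT. In KO with metformin the cytokine feedback gene Socs2 was higher (1.17), where 2.44% of all genes were past 2-fold higher. Dusp2, a phosphatase of immune cells, was lower (-1.08), where 0.613% were. It had 4.80 on the KO metformin array, under the filter value, and 5.88 on the KO vehicle array. Spry4, an inhibitor of receptor signalling, differed by at most 0.18 in any of the 4.

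Genes that share regulators with Cdkn1a and Sgk1 were few past 2-fold. Of 13 other p53 targets and kinase inhibitors, 1 was past 2-fold lower in KO under vehicle, where 8.12% of all genes were, the p53 ligase Mdm2 (-1.38), followed by Cdkn1b (-0.97) and Trp53inp1 (-0.79), while Phlda3 (0.15) and Sesn1 (0.11) were highest. The list median was -0.54 (all genes -0.22), with 10 of 13 below 0 where 66.9% of all genes were. Of 11 genes around Sgk1 and Tsc22d3, the Sgk1 substrate Ndrg1 (-1.37) and the activating kinase Pdpk1 (-1.26) were past 2-fold lower in the same comparison. Ndrg1 was past 2-fold higher with metformin in KO (1.18), where 2.44% of all genes were. Scnn1a, the sodium channel subunit, had -0.65 and the ligase Nedd4l -0.90, and the Tsc22d3 relatives Tsc22d1, Tsc22d2 and Tsc22d4 differed by at most 0.22 in any of the 4 comparisons.

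Beside the metallothioneins, 12 genes of metal response and zinc transport passed the filter. Mtf1, the zinc-sensing factor that activates Mt1 and Mt2, had 6.34 (KO metformin), 6.38 (KO vehicle), 6.19 (WT metformin) and 6.54 (WT vehicle). Of the 12, only the zinc importer Slc39a1 was past 2-fold lower in KO under vehicle (-1.02), where 8.12% of all genes were. Slc39a14 (-0.82) and Slc39a10 (-0.71) came next. In KO with metformin 0 of 12 were past 2-fold and the median was 0.40 (all genes 0.11), with Slc39a14 at 0.72 and Slc39a1 at 0.67. The glutathione synthesis genes Gclc (0.37) and Gclm (0.58), which share oxidative and metal induction with the metallothioneins, had similar values, and Mt3 (-0.58) was lowest.

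Dusp1 is also an immediate early gene, and Per1, Klf9 and Tsc22d3 vary with the time of day in many tissues, so both groups are given beside them. Of 15 immediate early genes past the filter, Nr4a1 (-1.15) and Egr1 (-1.13) were past 2-fold lower with metformin in WT, where 0.929% of all genes were. Nr4a1 (-1.28) and Jun (-1.18) were past 2-fold lower in KO under vehicle, where 8.12% of all genes were. With metformin in WT 10 of the 15 were below 0 and the list median was -0.10 (all genes -0.14). In KO under vehicle 12 of 15 were below 0 and the median was -0.62 (all genes -0.22), from Nr4a1 to Junb (0.64) and Myc (0.91). Of 16 clock genes, 8 were past 2-fold higher and 1 lower in KO than in WT under metformin, the comparison in which Tsc22d3 was past 2-fold. Of all genes 0.532% were higher and 0.388% lower there. Dbp (2.06), Per3 (1.75) and Tef (1.32) were highest and Arntl (-1.74) lowest. Under vehicle 2 were higher and 4 lower, where 2.31% and 8.12% of all genes were, with Per3 at 1.61 and Arntl at -2.35. With metformin in WT Zbtb16, Bcl6 and Dusp1 were past 2-fold lower, and so were 3 of the 16 and 0.929% of all genes. The 3 were Dbp (-1.21), Nr1d1 (-1.21) and Per1 (-1.19). With metformin in KO Dbp (1.13) and Nr1d1 (1.09) were past 2-fold higher, where 2.44% of all genes were. The part of the clock and immediate early genes in the differences of the 10 genes was not tested.

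The arrays carried the corpus markers at high values, from 12.8 to 13.2 for the proton pump gene Atp4a, from 13.99 to 14.0 for pepsinogen C (Pgc) and from 13.8 to 13.9 for the pit cell gene Gkn2. Prkaa1 and Prkaa2, the targeted genes, had differences in KO of -1.28 and -1.71 under vehicle and of -0.24 and -0.50 under metformin. In KO under vehicle, where 5 of the 10 genes were lower, all 9 parietal cell markers were below 0 (median -0.42), as were 6 of 6 endothelial markers (median -0.76) and 7 of 8 smooth muscle markers (median -0.89), where 66.9% of all genes were. Mast cell (1.07, with Kit at -1.61), squamous (0.73) and chief cell markers (0.04) had medians above 0 there. So did macrophage and granulocyte (0.07) and mucous neck cell markers (0.01). The neck cell list was split, with 3 genes above 0 and Muc6 (-1.05) and A4gnt (-1.48) past 2-fold lower. Of all genes 8.12% were. Fat cell markers (0.68), with 2 genes past the filter, also had a median above 0. The 2 B and plasma cell genes past the filter went opposite ways, so their median is not read. Derl3 had -0.49, and Jchain had 7.02 (KO vehicle) and 3.94 (WT vehicle, under the filter value). Jchain and the mast cell gene Mcpt2 passed the filter only through the KO arrays. The pit cell, fibroblast, T and NK cell and neuron and glia lists had medians below 0. In bulk tissue, fewer cells of a type and less RNA per cell cannot be told apart. With metformin in WT the parietal, endothelial and smooth muscle lists had medians of -0.25, -0.29 and 0.19. Of 6 fat cell markers 2 passed the filter, Fabp4 (0.61 with metformin in WT and 1.29 in KO under vehicle) and Cidec (0.40 and 0.06), while Adipoq and Lep did not. Between genotypes under metformin, where Tsc22d3 was past 2-fold, squamous markers had a median of 2.68 and mast cell markers of 2.03 (Kit at -0.31). The squamous genes Krtdap, Krt13 and Sbsn passed the filter only through the KO metformin array, so that squamous median is partly set by the filter. In the same comparison 8 of 8 smooth muscle markers were below 0, where 46.9% of all genes were. The part of these cell types in the differences was not tested.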

How the data were processed

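Gene expression was measured on 4 microarrays of mouse gastric corpus RNA, 1 for each of 4 groups taken from the sample titles. The log2 values were deposited by the authors and the submitters' processing notes name RMA and Partek, with no version; a range of 0.77 to 14.0 shows the scale. The sources used here give no settings and no build. Of 41345 probe sets, 23521 have 1 gene in the platform annotation, 1814 several and 16010 none named here. Symbols were updated by gene identifier in a RefSeq table (23328 of 23521 matched), and the probe set with the highest mean stood for a gene. Genes whose mean reached 5.03, the middle of all gene means, were kept. Differences of log2 values were counted at 2-fold, with no test; the number of arrays limits the precision. Members, lists and rules were chosen with earlier results of these data known. Named are all 10 members and the 5 nearest profiles to Zbtb16, Bcl6 and Mt1. List genes past 2-fold and up to 3 highest and lowest of a list are also named. Other names, such as Cd3d, Klf9, Klf15 and single relatives of the members, were chosen after their values were seen. Scripts were tested on simulated data. Tools were Python 3.11.15, pandas 2.3.3, numpy 2.4.6, statsmodels 0.14.6 (lowess, span 0.3), R 4.3.3 and limma 3.58.1 (cyclic loess).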

Additional observations from a re-analysis of the deposited data

Results flagged for a closer look

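For 6 of the 10 genes the single KO metformin array lay above its vehicle array while the single WT metformin array lay below its own. The KO response minus the WT response was 2.41 for Bcl6 (0.56 and -1.85), 2.01 for Dusp1 (0.58 and -1.43), 1.24 for Cdkn1a (0.89 and -0.35), 1.11 for Errfi1 (0.49 and -0.61), 0.73 for Mt1 (0.47 and -0.27) and 0.57 for Sgk1 (0.32 and -0.25). The difference between genotypes was not tested, since each response rests on 2 arrays, and 46.6% of all genes kept had the same pair of signs.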

How the results depend on the processing

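The values were recomputed without the expression filter or with it at the 75th percentile, after cyclic loess or median centring of the arrays, with probe sets of a gene averaged, with a 1.5-fold rule, and with the trend on gene span removed among protein-coding genes (length trend). With the 1.5-fold rule, 2 of the 10 genes were past the fold in the KO response (16.2% of all genes), 5 in the WT response (12.6%), 2 between genotypes under metformin (5.78%) and 8 in the difference of responses (38.2%). Cyclic loess left 3 in the genotype comparison under vehicle. The filter at the 75th percentile left 0 between genotypes under metformin because Tsc22d3 is not among the 7 genes it keeps. The other 64 recomputed counts and medians stayed within 1.5 times or 0.585 log2 units of their value. The cause of the change under cyclic loess was not tested. With the length trend removed, Tsc22d3 was also past 2-fold between genotypes under vehicle (1.11). Over these alternatives Bcl6 lay between -1.93 and -1.68, Zbtb16 between -1.87 and -1.55 and Dusp1 between -1.53 and -1.30 with metformin in WT. Some small differences changed sign: Fkbp5 between genotypes under vehicle (0.04 with cyclic loess, 0.27 with the length trend removed), Mt2 with metformin in WT (-0.08 with the length trend removed) and the Tsc22d3 difference of responses (-0.11 with the length trend removed). Scaling also moved the median of all genes between genotypes under vehicle, which was -0.22 as deposited, -0.07 with cyclic loess and -0.37 with centring. No paired analysis was possible because each group has 1 array and the labels carry no replicate numbers. With 1 array a group, the spread between animals is not measured for any value.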

Other observations

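Mt4, the metallothionein of stratified squamous epithelium, did not follow Mt1 and Mt2. It had log2 values of 5.33 on the KO metformin array, 3.68 on the KO vehicle array, 3.16 on the WT metformin array and 2.93 on the WT vehicle array, and its mean lay under the filter value. On the KO metformin array the keratinocyte genes Krtdap (9.13, against 4.43 on KO vehicle) and Krt10 (8.69, against 5.44) were also high. Without the filter, 7 of 11 measured squamous markers were past 2-fold higher between these arrays. Of all 22180 genes 2.51% were past 2-fold there in either direction. Krt4, Krtdap, Lor and Krt13 among the 7 lay under the filter value on KO vehicle, so their differences are not read as folds. The part of squamous cells in the Mt4 difference was not tested.

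Zbtb32, a BTB zinc finger gene of lymphocytes that also lay under the filter value, ran against Zbtb16 and Bcl6 in KO under vehicle, at 5.49 (KO vehicle) against 4.43 (WT vehicle). Among the other genes high on the WT vehicle array only were the potassium channel subunit Kcne1 (7.54 there, at most 6.51 elsewhere), the monoamine oxidase Maob (8.31, at most 7.16 elsewhere), the FOXO target Depp1 (7.24, at most 6.10 elsewhere) and the BTB zinc finger gene Zbtb10 (6.76, at most 5.66 elsewhere). These 4 were chosen after their values were seen.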
